A study of Homo sapiens with 8 samples.

Results

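PC3 is a human prostate cancer line that grows without androgen, and its baseline expression was read here from the mock channel of 2 of 8 Agilent Human GE 60K arrays. Each array held RNA of mock cells, which received no siRNA or miRNA, in Cy3, and RNA of transfected cells of the same line in Cy5. The mock cells of the other 6 arrays came from SK-MES-1 (lung squamous cell carcinoma, 2 arrays), SW1990 (pancreatic cancer, 1 array), MDA-MB-231 (breast cancer, 1 array) and PANC1 (pancreatic cancer, 2 arrays). The transfected cells carried si-PIR-2 or si-PIR-3 in PC3, miR-144-5p or miR-144-3p in SK-MES-1, miR-204-5p in SW1990 and MDA-MB-231, and miR-130-5p or miR-130-3p in PANC1. Arrays of 1 line were averaged first, because nothing in the labels shows that their mock RNA came from separate cultures, so PC3 stands as 1 line against 4. The labels give RPMI or DMEM as the medium without saying which line had which, so line and medium cannot be told apart. Probes were kept where the scanner software marked the Cy3 signal as well above background on both PC3 arrays or on all 6 others, and a gene or probe so marked is called seen. This left 25266 of 58201 probes and 19415 of 43317 gene names, each gene read from its brightest kept probe. A level below is the log2 of the background-subtracted, quantile-normalized Cy3 intensity, where 0 is the floor, and a difference is the PC3 level minus the mean of the 4 other lines.

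The prostate gland is built by luminal cells, which secrete kallikreins and phosphatases under androgen, by basal cells marked by TP63 and KRT5, and by rare neuroendocrine cells. Homeobox factors of the posterior body and the pioneer factor FOXA1 help to set the luminal programme, while the secreted products depend on androgen signalling. PC3 was derived from a bone metastasis and is used as a model of androgen-independent disease, and it is 1 line that cannot stand for prostate cancer as a whole.

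Between 41.4% and 46.4% of probes were well above background on an array, and no spot was saturated. The 2 PC3 arrays correlated at r = 0.996 across genes, and their levels differed with an SD of 0.231. Across genes, which are not independent replicates, PC3 correlated at r = 0.871 with SK-MES-1, 0.857 with SW1990, 0.872 with MDA-MB-231 and 0.860 with PANC1. All 8 arrays were on 1 slide, with PC3 and SK-MES-1 on its first row. The share of spots at the floor was 30.2% and 34.7% on the PC3 arrays, 36.1% and 37.1% on SK-MES-1, and 16.5% to 23.2% on the second row.

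In PC3 mock cells the microseminoprotein gene MSMP and PRAC1 were called higher than in the other 4 lines. HOXB13, the neighbour of PRAC1, was highest in PC3 without passing the test. MSMP, PRAC1 and HOXB13 were kept only through PC3, where they had to be high. The kallikrein genes KLK2, KLK3 and KLK4 were not kept. CTNNA1 and a block of neighbouring genes that holds STAT5B, STAT5A and STAT3 were not seen in PC3 and were seen in every other line. In the limma fit over 5 lines, 30 of 19415 genes were called higher in PC3 (0.155%) and 25 lower (0.129%) at an adjusted p under 0.05, and 718 and 399 had an unadjusted p under 0.05. Of the 30 higher genes, 28 had a probe seen on none of the other 6 arrays, and 21 of the 25 lower genes were seen on neither PC3 array. The 28 were kept only through PC3, where they had to be high, and the 21 only through the other lines. MSMP was likewise kept only through PC3, and CRAT and ATP6V0A1 only through the other lines. For the 28, the spread behind the fit comes from levels mostly near the floor. The adjusted p of all these genes, kept through 1 side only, is therefore no independent support for their direction. MIER2, MT1M and APOBEC3C were the only called genes seen on all 8 arrays. The single PC3 value is assumed in this fit to vary like the other lines. Leaving out any 1 of the 4 other lines, requiring detection on all 8 arrays, or taking the slide row as a block left 0 calls in either direction. With the scanner's processed signal 79 genes were called higher and 36 lower, with a normexp background 226 and 9, with only the second PC3 array 187 and 45, and with only the first 132 and 41. With arrays as samples and the line as a random block, for which limma estimates the correlation, 23 were called higher and 49 lower, among them 8 of the 30 and 20 of the 25. For a single gene, the smallest p of an exact permutation test of 1 line against 4 is 0.2. PC3 lay above every other line for 21.8% of the genes tested and below every other line for 15% of them. The filter favours the first share, as 3596 genes were kept only through the PC3 arrays and 280 only through the other 6. Among the 15539 genes seen on all 8 arrays, both PC3 arrays lay above all others for 2443 and below them for 2030. These values are the background for genes described as highest or lowest in PC3, each for its own set. Genes kept through the PC3 arrays alone had to be high there, so for lists that hold such genes their number is given and no median.

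Among the transcription factors of the prostate lineage, HOXB13, HOXA13 and FOXA1 were highest in PC3 and none of them passed the test. HOXB13 and FOXA1 were kept only through PC3, where they had to be high, whereas HOXA13 was seen on all 8 arrays. HOXB13, which patterns the prostate and the hindgut, had levels of 13.19 and 13.18 on the PC3 arrays, 2.74 and 2.28 on SK-MES-1, 4.42 on SW1990, 0.36 on MDA-MB-231, and 7.31 and 7.26 on PANC1. Both PC3 arrays lay far above all others, and PANC1 was the next line, while MDA-MB-231 was near the floor. The difference was 9.54 (SE 2.53, adjusted p = 0.486) and did not pass the test, with an SD among the other 4 lines of 2.94. HOXA13, a posterior homeobox factor of the urogenital tract, had levels of 8.76 and 8.81 on the PC3 arrays, 4.51 and 4.69 on SK-MES-1, 3.3 on SW1990, 3.54 on MDA-MB-231, and 5.06 and 4.96 on PANC1. The 2 PC3 values were higher than all 6 others. The difference of log2 means was 4.67 (SE 0.82, adjusted p = 0.175), which corresponds to 25.5-fold. FOXA1, a pioneer factor that opens chromatin in luminal cells, had levels of 9.48 and 9.53 on the PC3 arrays, 5.76 and 5.77 on SK-MES-1, 5.28 on SW1990, 0.38 on MDA-MB-231, and 0.86 and 0.74 on PANC1. PC3 was again above every array, SK-MES-1 and SW1990 were intermediate, and the difference was 6.45 (SE 2.46, adjusted p = 0.832).

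For SPDEF, ONECUT2, ETV1, GATA2 and SOX9, PC3 lay within or just above the range of the other lines. SPDEF, an ETS factor of secretory epithelia, read 8.78 and 8.92 against 2.5 to 9.07 on the other arrays, where SW1990 and MDA-MB-231 were as high as PC3. ONECUT2 read 6.04 and 5.91 against 2.69 to 5.68, ETV1, an ETS factor rearranged in some prostate tumours, 8.08 and 8.01 against 4.08 to 8.41, and GATA2, a zinc finger factor, 3.87 and 3.73 against 0.023 to 5.33. SOX9, a factor of prostate bud growth, read 6.38 and 6.46 against 5.65 to 6.39. In all, 10 of the 13 factors were kept, 5 of them only through PC3, and 0 were called. GRHL2, ERG and HOXD13 were not kept.

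**Figure D1:**
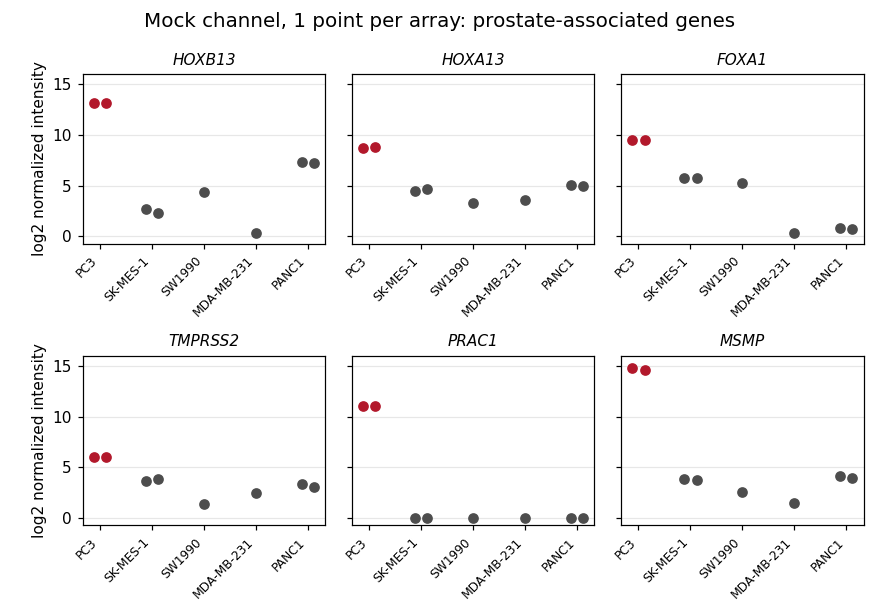
The log2 normalized intensity of 6 prostate-associated genes is plotted for the mock channel of each array, with 1 point per array, PC3 in red and the other lines in grey. The 2 PC3 points lie above all others for every gene drawn, and the other lines are at or near the floor for PRAC1.

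Genes under androgen control and secreted products of luminal cells were split between those seen in PC3 and those that were not. Of 26 androgen-regulated and prostate secretory genes, 14 were kept, all of them seen on both PC3 arrays and 4 kept only through PC3, and 0 were called. KLK3 (prostate-specific antigen), KLK2, KLK4, ACPP (prostatic acid phosphatase), MSMB, TRPM8, FOLH1 (prostate-specific membrane antigen), STEAP4, PART1, PCA3, NPY and HPN were not kept. KLK3 read 2.53 and 1.96 on the PC3 arrays and FOLH1 2.89 and 2.27, and FOLH1 was well above background on 1 of the 2. In the transfected channel KLK3 was marked as above background on all 8 arrays, with PC3 at 3.76 and 3.25, and FOLH1 on 1 PC3 array. TMPRSS2, the androgen-regulated protease whose promoter is fused to ETS genes in many prostate tumours, had levels of 6.0 and 5.98 on the PC3 arrays, 3.67 and 3.8 on SK-MES-1, 1.41 on SW1990, 2.5 on MDA-MB-231, and 3.3 and 3.08 on PANC1. Both PC3 arrays were above all others for TMPRSS2, with a difference of 3.28 (SE 0.96, adjusted p = 0.59). TMPRSS2 was kept only through PC3, where it had to be high. NDRG1, a stress- and androgen-responsive gene, read 12.22 and 12.22 against 8.61 to 11.72, and CAMKK2, a kinase under androgen control, 7.05 and 7.06 against 5.95 to 6.35. The difference was 2.41 (SE 1.23, adjusted p = 0.9996) for NDRG1 and 0.89 (SE 0.43, adjusted p = 0.993) for CAMKK2, so neither passed. The PC3 values lay within the range of the other lines for SLC45A3, 8.46 and 8.7 against 5.7 to 10.18, for STEAP1, 9.22 and 9.24 against 8.26 to 10.27, and for FKBP5, an androgen and glucocorticoid target, 5.15 and 5.34 against 0.03 to 6.38. PMEPA1 was below every other line, with 8.27 and 8.26 against 8.38 to 11.34 and a difference of -1.4 (SE 1.1, adjusted p = 0.9996).

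The receptors and enzymes of the steroid pathway were read next. The glucocorticoid receptor gene NR3C1 was seen in every line, with 9.25 and 9.34 against 9.57 to 10.87, and its difference was -1.12 (SE 0.56, adjusted p = 0.9996). The mineralocorticoid receptor gene NR3C2 read 6.22 and 6.23 against 0 to 6.02, and MDA-MB-231 was the only other line in which it was seen. The vitamin D receptor gene VDR read 8.23 and 8.19 against 5.85 to 9.74, with SW1990 above PC3. ESR1, ESR2 and PGR were not kept. AKR1C3, which makes testosterone from androstenedione, read 8.35 and 8.38 against 2.08 to 13.4, highest in SK-MES-1 and lowest in PANC1, and AKR1C1 5.41 and 5.5 against 1.24 to 13.23. SRD5A1, a steroid 5-alpha reductase, read 5.21 and 4.93 against 5.36 to 6.35 and was below every other line. Of 17 enzyme genes found by name on the array, 7 were kept, 3 of them only through PC3, and 0 were called. AKR1C2 and UGT2B17 were not analysed here.

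Of the genes of basal and neuroendocrine cells, some were seen in PC3, but TP63, KRT5 and CHGA, which are commonly used to define these cells, were not. TP63 read 0 and 0.013 and KRT5 0 and 0.013 on the PC3 arrays, neither above background, and the neuroendocrine granule gene CHGA read 0 and 0.013. Of 14 basal genes 7 were kept, all seen on both PC3 arrays and 1 kept only through PC3, and 0 were called. Among them were ITGA6, 9.57 and 9.72 against 8.24 to 10.13, and CD44, 11.61 and 11.65 against 12.52 to 13.48, the lowest of all lines. Of 13 neuroendocrine genes 4 were kept, namely ENO2, FOXA2, DLL3 and POU3F2, all seen on both PC3 arrays and 2 kept only through PC3, and 0 were called. POU3F2, a neural factor, read 4.82 and 4.86 against 0.023 to 2.73, with a difference of 3.79 (SE 1.11, adjusted p = 0.591), and DLL3, a Notch ligand, 7.64 and 7.47 against 0 to 12.27, highest in PANC1. The summed linear level of the 13 neuroendocrine genes was 1182 in PC3, below 5576 in PANC1 and above the 463 to 956 of the other 3 lines. A linear sum is led by its brightest genes, in PANC1 by DLL3, and does not measure a shared neuroendocrine programme. Epithelial and mesenchymal genes were seen side by side in PC3. The simple keratins KRT8, KRT18 and KRT19 read 8.48 and 8.47, 12.34 and 12.43 and 14.12 and 14.21 in PC3, the intermediate filament gene VIM 13.99 and 14.06, and none of these 4 differences passed the test. CDH1, the epithelial cadherin, read 5.48 and 5.49 against 0.46 to 10.01, with SW1990 at the top, and CDH2, the neural cadherin, 9.76 and 9.81 against 3.4 to 10.46, with SK-MES-1 at the top. TWIST1, a mesenchymal factor, read 6.72 and 6.76 against 0 to 5.07, above every other line, with a difference of 5.09 (SE 1.92, adjusted p = 0.822). TWIST1 was kept only through PC3, where it had to be high. CTNNA1 was the only called gene among the 13 epithelial genes (all kept, 2 only through PC3), and 0 of 10 mesenchymal genes were called (9 kept, 5 only through PC3).

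Genes seen in PC3 alone included NEFL, PRAC1 and FBN2. Of 19144 gene names seen on both PC3 arrays, 361 (1.89%) had no probe well above background on any other array. PRAC1, a small nuclear protein of the prostate and distal colon, was at the floor in every other line, with 11.07 and 11.05 on the PC3 arrays, 0.03 and 0.023 on SK-MES-1, 0 on SW1990, 0 on MDA-MB-231, and 0 and 0 on PANC1. It was called higher, by 11.06 (SE 0.46, adjusted p = 0.0142), with a nominal bound of 721-fold. Like the other genes of this kind, PRAC1 was kept only through PC3, and its SE rests on other lines at the floor. NEFL, the neurofilament light chain, had levels of 11.42 and 11.43 on the PC3 arrays, 0.03 and 0.023 on SK-MES-1, 0.24 on SW1990, 0.16 on MDA-MB-231, and 1.59 and 1.75 on PANC1. NEFL was higher by 10.9 (SE 0.79, adjusted p = 0.0263), with a nominal bound of 927-fold. NEFL is a neuronal gene although it was not among the neuroendocrine genes listed. FBN2, a fibrillin of elastic microfibrils, read 9.28 and 9.22 against 0 to 1.78, with a difference of 8.85 (SE 0.6, adjusted p = 0.0228), and LRRC38, an accessory subunit of a potassium channel, 8.02 and 8.02 against 0.14 to 0.56, with a difference of 7.7 (SE 0.48, adjusted p = 0.0228). SLITRK4, a synaptic adhesion protein, read 7.53 and 7.72 against 0 to 0.45, and PTPRD, a receptor tyrosine phosphatase, 7.37 and 7.43 against 0 to 0.29, and both were called higher, with adjusted p of 0.0228 and 0.0228. LINC01468, a long non-coding RNA, read 9.47 and 9.48 against 0 to 0.33 and was called higher. TRIM58, SIDT1 and IGFBP5 completed the 10 brightest named genes of this kind, with PC3 levels of 9.62 and 9.68, 7.85 and 7.86 and 7.62 and 7.56, and none of the 3 passed the test (adjusted p = 0.0618, 0.119 and 0.114). IGFBP5, a binding protein of insulin-like growth factors, passed in the transfected channel (difference 8.15, adjusted p = 0.0217). It was read there on the probe picked in the mock channel, so the pass is no separate support.

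The largest difference among the called genes belonged to MSMP, the prostate-associated microseminoprotein, a small secreted protein. Its levels were 14.79 and 14.63 on the PC3 arrays, 3.81 and 3.79 on SK-MES-1, 2.56 on SW1990, 1.5 on MDA-MB-231, and 4.12 and 3.94 on PANC1. It was seen on 4 of the 6 other arrays, but far below PC3, and was called higher by 11.74 (SE 1.08, adjusted p = 0.0407). MSMP was kept only through PC3, where it had to be high, so its adjusted p is no independent support for its direction. Other called genes with a known role were NPY1R, a receptor of neuropeptide Y (7.07 and 6.96 against 0.023 to 0.63), CLDN14, a tight junction protein (7.22 and 7.47 against 1.77 to 2.53), NPNT, a matrix ligand of integrins (6.23 and 6.15 against 0 to 0.96), and PDPN, podoplanin (5.05 and 4.98 against 0 to 0.03). PRAC1 and HOXB13 are neighbours, with probes at chr17:46799244-46799721 and chr17:46802144-46802203 on hg19. PRAC2, which lies between them, read 6.85 and 6.67 against 5.13 to 5.61 on the probe that was tested and 4.91 and 5.04 against 0 to 0.99 on the other. Elsewhere in the same cluster PC3 was low, and HOXB9 read 4.4 and 4.42 on the PC3 arrays, 8.91 and 8.86 on SK-MES-1, 9.48 on SW1990, 9.34 on MDA-MB-231, and 11.08 and 11.2 on PANC1. HOXB9 in PC3 was below every other line, with a difference of -5.3 (SE 0.91, adjusted p = 0.173). HOXB4 in PC3 was below every other line too, and HOXB2 below all but MDA-MB-231, as HOXB2 and HOXB4 read 4.12 and 3.79 against 0.82 to 10.59 and 2.37 and 1.61 against 3.36 to 8.58.

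Genes absent from PC3 and seen everywhere else included CTNNA1, which acts as a tumour suppressor in epithelia. Of 15850 gene names seen on all 6 other arrays, 162 (1.02%) had no probe well above background on either PC3 array, and 83 did so when a margin of 2 on the log2 scale was required. CTNNA1, alpha-catenin, which ties cadherins to actin, had levels of 0 and 0.013 on the PC3 arrays, 10.62 and 10.66 on SK-MES-1, 10.09 on SW1990, 10.95 on MDA-MB-231, and 10.33 and 10.36 on PANC1 (probe at chr5:138270387-138270446). It was called lower, with a difference of -10.5 (SE 0.48, adjusted p = 0.016) and a nominal bound of 879.7-fold. Its second probe read 1.66 and 1.46 on the PC3 arrays and 6.93 to 8.46 on the others. CDKN1A, the p21 cell cycle inhibitor, was seen on neither PC3 array and on all others, 2.03 and 2.3 against 3.86 to 5.04, with a difference of -2.16 (SE 0.61, adjusted p = 0.556), but it was seen on both PC3 arrays in the transfected channel.

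The inhibitors of the CDKN2 locus were the opposite case. CDKN2A, which encodes p16 and p14ARF, had levels of 10.99 and 11.1 on the PC3 arrays, 5.96 and 6.24 on SK-MES-1, 6.37 on SW1990, 5.37 on MDA-MB-231, and 6.05 and 6.18 on PANC1. The gap of PC3 above the next line was the widest of any gene seen on all 8 arrays. The difference of log2 means was 5.05 (SE 0.54, adjusted p = 0.0567), which corresponds to 33.2-fold, and it missed the threshold. A second CDKN2A probe was seen in PC3 alone, with 9.17 and 9.1 against 0 to 0.49. CDKN2B, its neighbour encoding p15, was also seen only in PC3, 4.18 and 4.38 against 0 to 0.18, with a difference of 4.25 (SE 0.47, adjusted p = 0.0579), and passed in the transfected channel (adjusted p = 0.0312). CDKN2B was kept only through PC3, where it had to be high, and its SE rests on other lines near the floor. The transfected channel was read on the same probe, so its pass there is no separate support. MTAP, a gene beside CDKN2A and CDKN2B, read 6.39 and 6.56 on the PC3 arrays, 6.29 and 6.49 on SK-MES-1, 6.81 on SW1990, 0 on MDA-MB-231, and 6.79 and 6.66 on PANC1, and only MDA-MB-231 was at the floor. RB1, SMAD4, NF2, STK11 and CHD1 were seen in all lines and none was called, with RB1 at 8.87 and 8.89 against 9.14 to 9.96.

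**Figure D2:**
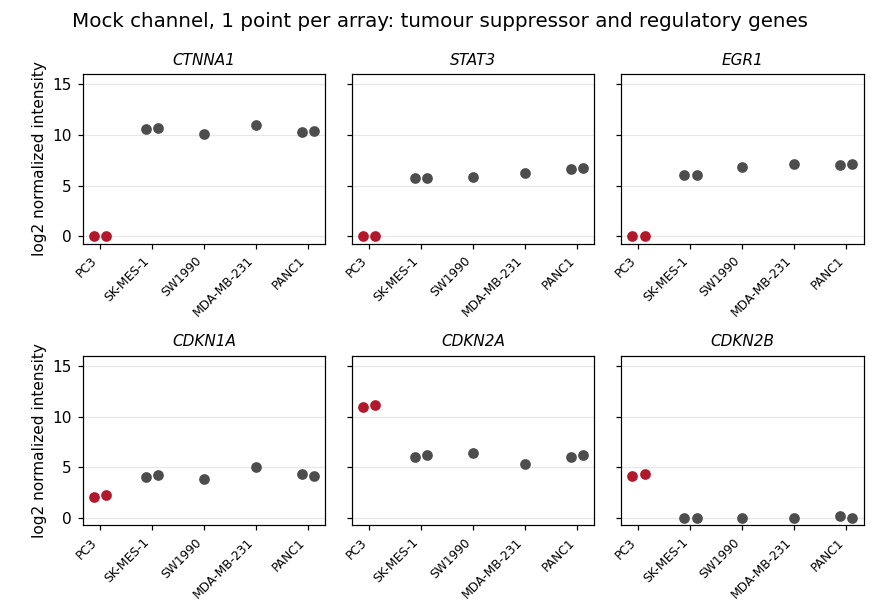
The log2 normalized intensity of 6 tumour suppressor and regulatory genes is plotted for the mock channel of each array, with 1 point per array, PC3 in red and the other lines in grey. CTNNA1, STAT3 and EGR1 lie at or near the floor in PC3 only, and CDKN2A and CDKN2B are highest in PC3.

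Several of the genes absent from PC3 were neighbours on the chromosome. With the 15739 genes seen on all 6 other arrays placed in order on hg19, 35 of the 162 genes not seen in PC3 lay in 13 runs of 2 or more consecutive genes, the longest of 6. One run of 6 spanned 209 kb at chr17:40265235-40474463 and held KAT2A (a histone acetyltransferase), RAB5C (an endosomal GTPase), GHDC, STAT5B, STAT5A and STAT3. STAT3, a factor activated by interleukin 6 receptors, had levels of 0 and 0.013 on the PC3 arrays, 5.78 and 5.76 on SK-MES-1, 5.89 on SW1990, 6.21 on MDA-MB-231, and 6.69 and 6.7 on PANC1. STAT5B, activated by growth hormone and prolactin receptors, read 0 and 0.013 against 6.75 to 8.24, STAT5A 0 and 0.013 against 4.48 to 5.91, RAB5C 0.49 and 0.013 against 6.11 to 7.46 and KAT2A 1.53 and 0.68 against 8.74 to 9.57. STAT3, STAT5B, RAB5C and KAT2A were called lower (adjusted p = 0.0391, 0.0375, 0.0415 and 0.0228), and the differences of STAT5A and GHDC were -5.17 (SE 0.68, adjusted p = 0.091) and -6.12 (SE 0.68, adjusted p = 0.0591). On both sides of the run the signal returned within a few genes. DHX58, just before the run, was still marked as above background in PC3 but read 1.8 and 1.73 against 5.99 to 8.56, whereas NKIRAS2 and DNAJC7 before it read 6.75 and 6.7 against 6.27 to 7.56 and 8.74 and 8.79 against 6.94 to 9.3. Beyond STAT3, the 2 probes of PTRF, which encodes cavin-1, disagreed, 4.23 and 1.31 against 11.73 to 13.16 on the one nearer to STAT3 and 14.5 and 14.45 against 13.75 to 14.38 on the other, 80.1 and 81.4 kb from the STAT3 probe. ATP6V0A1, a subunit of the proton pump of lysosomes, read 2.59 and 1.34 against 9.11 to 9.99 and was called lower, with a difference of -7.74 (SE 0.49, adjusted p = 0.0228) although 1 of the 2 PC3 arrays was above background, and the next gene, NAGLU, read 6.25 and 6.27 against 7.03 to 9.12.

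The window around CTNNA1 showed the same kind of edge. Within 1 Mb of CTNNA1 32 genes were tested, and CTNNA1, SIL1 and EGR1 were not seen in PC3, with CTNNA1 and EGR1 called lower. SIL1, a co-chaperone of the endoplasmic reticulum whose probe lies 12 kb from that of CTNNA1, read 0 and 1.54 against 6.27 to 7.65, a difference of -6.05 (SE 0.66, adjusted p = 0.0571). EGR1, an immediate-early zinc finger factor, read 0 and 0.013 against 6.07 to 7.16, a difference of -6.78 (SE 0.6, adjusted p = 0.0375), but its neighbours REEP2 and ETF1 were seen in PC3, 9.01 and 9.01 against 5.67 to 9.18 and 8.41 and 8.45 against 8.39 to 9.5. Beyond the SIL1 probe, 2 probes of the non-coding lnc-CTNNA1-2 were seen in PC3 only, with 4.72 and 4.79 against 0 to 1.67 and 5.72 and 5.64 against 0 to 0.37. The median difference in this window was -0.016.

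Other regions, picked after their values were seen, had abrupt edges as well. CIC, a transcriptional repressor, was called lower by its tested probe, 0.7 and 1.15 against 7.18 to 7.78, but its other probe, at -21.2 kb from it, read 6.2 and 6.12 against 5.52 to 6.31, so the gene's call rests on 1 of 2 probes. The next genes along chromosome 19, PAFAH1B3 and PRR19, were not seen in PC3 (1.45 and 1.79 against 8.11 to 9.43 and 0 and 0.013 against 3.34 to 5.94), and the one after them, TMEM145, was above every other line (10.01 and 9.96 against 3.54 to 6.49). On chromosome 15, PARP6 and HEXA, the lysosomal hexosaminidase subunit, were both called lower (0 and 0.013 against 8.09 to 9.32 and 0 and 0.7 against 8.17 to 9.47), while CELF6, whose probe lies between theirs, read 7.1 and 7.09 against 6.57 to 7.48. A run of 6 on chromosome 16, spread over 1268 kb, held the Iroquois homeobox genes IRX3 (0 and 0.013 against 6.4 to 8.57) and IRX5 (0.48 and 0.013 against 5.81 to 7.58), the non-coding CRNDE (0 and 2.02 against 7.42 to 10.55) and LPCAT2, and no gene in it was called (adjusted p = 0.0619 for IRX3). FAM213A and TSPAN14 on chromosome 10 were a pair, 0 and 0.013 against 8.66 to 9.79 and 0 and 0.013 against 5.77 to 8.78, and FAM213A was called lower, with a difference of -9.29 (SE 0.55, adjusted p = 0.0228). In the APOBEC3 cytidine deaminase cluster on chromosome 22, APOBEC3C was called higher by 3.97 (SE 0.39, adjusted p = 0.0468), with levels of 10.47 and 10.53 against 6.44 to 6.65. APOBEC3F differed by probe, 9.99 and 9.92 against 5.86 to 6.2 on the one that was tested and 0 and 0.98 against 6.18 to 7.23 on the other, and its direction turned when the probes were averaged. The genes of this family are alike in sequence, so their probes could share signal. These are levels of RNA, and the DNA of these regions was not analysed here.

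**Figure D3:**
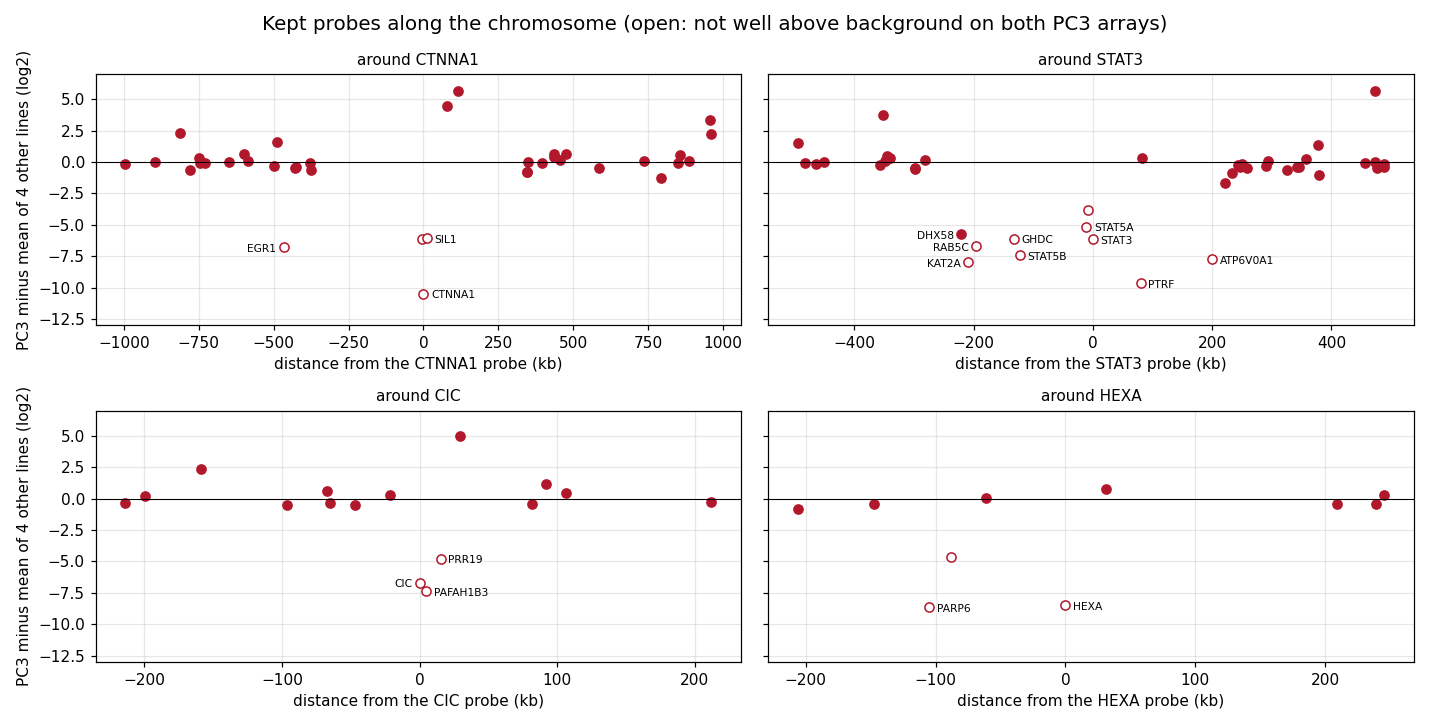
The PC3 minus other-line difference (log2) of every kept probe is plotted against its distance in kb from the CTNNA1, STAT3, CIC or HEXA probe, and open circles are probes not well above background on both PC3 arrays. In each window a group of probes lies far below 0 while most neighbours lie near 0, and 1 PTRF probe and 1 CIC probe sit near 0 beside others of the same gene that do not.

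Across whole chromosomes the differences were small. Among genes seen on all 8 arrays the median difference was -0.0071 over all chromosomes and ranged from -0.29 on chromosome 16 to 0.41 on chromosome 21, with 0.33 on chromosome 18. The share of genes not seen in PC3, of those seen on all other arrays, was highest on chromosomes 8, 10 and 16 (2.26%, 2.12% and 2.11%), against 1.03% overall. These values were not tested.

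Further genes called lower are described here by their products, as examples. CYBA, the p22phox subunit of NADPH oxidase, read 0 and 0.73 against 8.85 to 10.17 and was called lower, with a difference of -9.02 (SE 0.61, adjusted p = 0.0228). PXMP4, a peroxisomal membrane protein, read 0 and 0.013 against 7.63 to 8.74, and CRAT, carnitine acetyltransferase, 2.46 and 2.03 against 10.69 to 10.92, and both were called lower, CRAT with 1 of the 2 PC3 arrays above background. ZNF655, a zinc finger gene, and FAM83G, a partner of casein kinase, read 0 and 0.013 against 8.34 to 8.74 and 0.49 and 0.013 against 8.24 to 9.53 and were called lower. FZD7, a Wnt receptor, read 1.39 and 2.21 against 7.41 to 8.66 and was called lower, with a difference of -6.29 (SE 0.58, adjusted p = 0.0399). MT1M, a metallothionein, was seen in every line, read 5.95 and 6.04 against 9.78 to 10.39, and was called lower, with a difference of -4.02 (SE 0.4, adjusted p = 0.0475).

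Genes seen on all 8 arrays were marked as well above background on both sides of the comparison. Of 15539 such genes, both PC3 arrays lay above all 6 others for 2443 and below them for 2030, but the gap to the nearest line reached 2 on the log2 scale for only 44 and 43. After CDKN2A, the widest gaps upwards belonged to FZD8, a Wnt receptor (10.92 and 10.89 against 3.18 to 6.43), HAS3, which makes hyaluronan (10.65 and 10.61 against 4.14 to 6.21), HEY1, a Notch target (10.53 and 10.53 against 3.88 to 6.12), and the zinc finger gene ZNF503 (12.34 and 12.24 against 6.41 to 8.03). TFF1, a trefoil peptide of mucous epithelia, read 11.07 and 11.14 on the PC3 arrays, 4.06 and 4.37 on SK-MES-1, 7.55 on SW1990, 7.04 on MDA-MB-231, and 4.17 and 4.41 on PANC1. PC3 was above every array and SW1990 and MDA-MB-231 came next, with a difference of 5.33 (SE 1.55, adjusted p = 0.58). APOBEC3C, APOBEC3F, HOXA13 and TMEM145, described above, completed the 10. Downwards, TGFBI, a matrix protein induced by transforming growth factor beta, had levels of 4.46 and 4.62 on the PC3 arrays, 14.16 and 14.12 on SK-MES-1, 13.67 on SW1990, 10.29 on MDA-MB-231, and 11.97 and 12.001 on PANC1. The difference was -7.98 (SE 1.52, adjusted p = 0.219), and the other lines ranged widely although all were far above PC3. MIER2, a chromatin corepressor, read 3.56 and 3.2 against 8.54 to 9.0 and was called lower, with a difference of -5.39 (SE 0.41, adjusted p = 0.029). CYB5R2, a cytochrome b5 reductase, read 3.21 and 2.9 against 8.18 to 12.23, AKR1B1, aldose reductase, 4.37 and 4.24 against 9.25 to 11.01, FOXQ1, a forkhead factor, 4.8 and 4.42 against 9.49 to 11.04, and GALC, a lysosomal galactosidase, 2.59 and 2.8 against 7.19 to 9.11. EHD2, a caveolar protein, read 4.46 and 4.11 against 8.69 to 9.98 and PPAP2C, a lipid phosphatase, 3.16 and 2.7 against 6.82 to 9.34, and with HOXB9 and DHX58 they completed the 10. None of these but MIER2 passed the test. Although marked as above background, DHX58 (1.8 and 1.73) and GALC read low in PC3, so the sizes of such differences are uncertain.

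Factors through which tumour cells act on bone were read as a list, since PC3 came from a bone metastasis. DKK1, a Wnt antagonist that restrains bone formation, read 12.98 and 13.01 on the PC3 arrays, 5.9 and 6.02 on SK-MES-1, 10.46 on SW1990, 11.26 on MDA-MB-231, and 11.05 and 10.998 on PANC1. PC3 was the highest line for DKK1, with a difference of 3.32 (SE 2.14, adjusted p = 0.9996). PLAU, the urokinase gene, read 13.3 and 13.46 against 11.69 to 12.94, PTHLH, parathyroid hormone-like hormone, 7.28 and 7.26 against 1.73 to 6.8, and CXCL8, interleukin 8, 6.19 and 6.29 against 1.42 to 4.96. PC3 was the highest line for all 3 and none passed. IL6, NOG, BMP6 and CXCR4 read 6.08 and 6.1, 5.77 and 5.8, 2.32 and 2.4 and 2.83 and 2.78 in PC3, and each was exceeded by at least 1 other line. Of the 21 genes 14 were kept, 7 of them only through PC3 and 1 only through the other lines, and 0 were called. PC3 was above every other line for 4 of the 14 (28.6%, against 21.8% of all genes tested). It was below every other line for 2 of the 14 (14.3%, against 15%).

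AP-1 and YAP/TEAD genes, which drive growth downstream of kinases and of the Hippo pathway, were seen on all 8 arrays where they were kept. FOSL1, an AP-1 subunit, read 10.96 and 10.97 against 8.92 to 9.79 with a difference of 1.59 (SE 0.43, adjusted p = 0.499), and PC3 was the highest line for FOSL1 and TEAD2. AMOTL2, a YAP target, was the only kept one for which PC3 was below every other line, 8.43 and 8.4 against 9.65 to 10.6, with a difference of -1.73 (SE 0.5, adjusted p = 0.575). Of 17 genes 15 were kept and 0 called, with a median difference of -0.44 against -0.0071 over all chromosomes for genes seen on all 8 arrays. PIR, the iron-binding nuclear protein that the siRNAs target, read 10.63 and 10.7 on the PC3 arrays, 11.1 and 11.03 on SK-MES-1, 9.75 on SW1990, 7.78 on MDA-MB-231, and 12.32 and 12.31 on PANC1 in the mock channel. PC3 lay within the range of the other lines, with a difference of 0.44 (SE 1.67, adjusted p = 0.9996), and in the transfected channel, where PC3 carried si-PIR, the difference was -4.09 (adjusted p = 0.786). Of the 10 genes the study follows 6 were kept and 0 called (median difference -0.27), with HSF1 at 12.33 and 12.44 against 11.57 to 12.23 and BCL3 at 9.12 and 9.11 against 9.48 to 10.24.

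Markers of other tissues and cell types were read as well. Of 13 genes of pancreas, lung and breast identity 3 were kept (PRSS1, SCGB1A1 and GATA3), 1 of them only through PC3, and 0 were called, and the summed linear level of all 13 was 65.4 in PC3 and 90.8 to 189 in the other lines. Of 14 blood, vessel and stroma genes found by name 9 were kept, 3 of them only through PC3, and 0 were called, with a summed level of 211 in PC3 and 188 to 1096 elsewhere. PTPRC, which marks leukocytes, read 3.88 and 3.48 against 2.64 to 3.95, and CDH5, which marks endothelium, 3.23 and 3.83 against 3.31 to 4.35. Their part in the results was not tested.

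The Cy5 channel holds other RNA of the same lines on the same spots, after transfection, and was fitted in the same way as a repeat that shares line, slide and probes with the mock channel. There 49 genes were called higher (0.252%) and 30 lower (0.155%). Of the mock calls, 18 of 30 higher (60.0%) and 22 of 25 lower (88%) were called there too, which are 36.7% and 73.3% of the calls in the transfected channel. All 55 mock calls had the same sign in both channels. These genes were picked for large mock differences and read on the same probes, so the shared sign is no separate support for them. CTNNA1 differed by -10.94 there (adjusted p = 0.0217), STAT3 by -6.87 (0.0288), PRAC1 by 10.51 (0.0217) and MSMP by 11.51 (0.0268). Some calls were made in the mock channel only. NEFL differed by 10.45 in the transfected channel (adjusted p = 0.0986) and was seen there on 2 arrays of other lines. FBN2 differed by 9.48 (0.0505), LINC01468 by 9.27 (0.0614), APOBEC3C by 4.26 (0.0615), NPNT by 6.0 (0.0648), PDPN by 5.46 (0.0543) and NPY1R by 4.99 (0.13). The 3 lower calls not made there were EGR1, which differed by -8.05 (0.0688), FZD7 by -6.0 (0.0642) and ATP6V0A1 by -6.5 (0.0504). HOXB13 and FOXA1 differed by 9.35 and 6.18, and neither passed in either channel. CDKN2A differed by 5.03 and passed in the transfected channel (adjusted p = 0.0491).

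**Figure D4:**
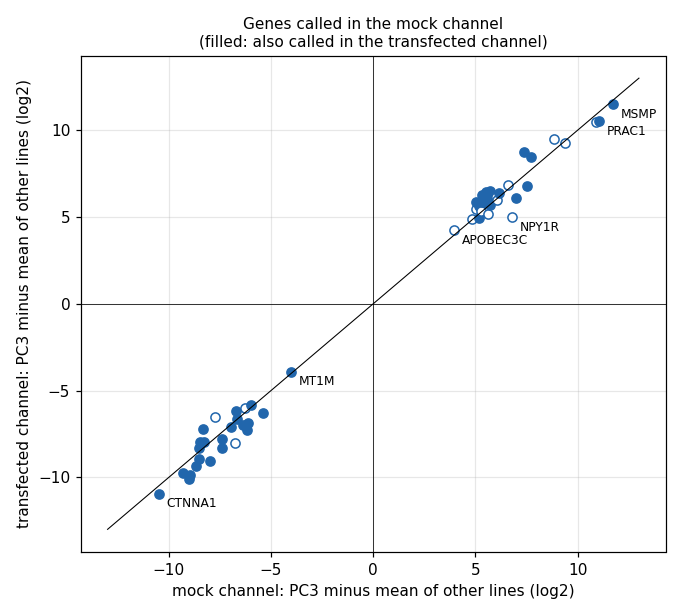
For the 55 genes called in the mock channel, the PC3 minus other-line difference (log2) in the transfected channel is plotted against that in the mock channel, with filled points for genes called in both and a line of equal values. All points lie in the lower left and upper right, from CTNNA1 to MSMP.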

How the data were processed

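RNA of mock and of transfected cells was hybridised in Cy3 and Cy5 to 8 two-colour Agilent arrays on 1 slide, read in 1 scan. The authors deposited, per array, the spot and background intensity of each channel and detection flags from Agilent Feature Extraction 11.5.1.1. Their value table of log10 Cy5 over Cy3 ratios was not used. The median background was subtracted from the mean Cy3 intensity, values were floored at 1, and log2 levels were quantile-normalized over the 8 arrays without control spots. With limma 3.58.1 (R 4.3.3, lmFit and eBayes with trend), PC3 was compared with 4 lines, 1 value per line, two-sided, with Benjamini-Hochberg adjustment over 19415 genes. On data simulated for this comparison over 19415 genes, limma called 0 of 50 genes changed by 2 on the log2 scale, 15 of 50 by 4, 31 of 50 by 6 and 38 of 50 by 8, and 2 unchanged genes. The simulated levels were normal, with the spread of the other lines and no floor. These rates therefore do not describe genes at the floor in PC3 or in the other lines. The number of arrays limits the precision.

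A fold written as a nominal bound sets the mean of the bright side against a bound for the dim side, on each array the higher of its lowest level among probes well above background and the probe's own level. That lowest level was 0.0127 on the second PC3 array and 0.0298 on the first SK-MES-1 array, near the floor. On the other arrays it was 1.44 to 1.92. The nominal bounds can therefore be too large and are not strict lower limits. The members and gene lists were chosen with earlier results of these data known. Named were the list genes that passed the test, were seen in PC3 or define a list, the 10 genes seen on all 8 arrays with the widest gap in each direction, the 10 brightest genes seen only in PC3 and the 10 brightest seen only elsewhere, and genes within 1 Mb of CTNNA1. Some genes that meet this rule are not reported here, and counts over a list include them. Names that are only an identifier were left out of these rankings. MSMP, other called genes and the windows around STAT3, CIC, HEXA, HOXB13 and APOBEC3F were described after their values were seen. Gene names and hg19 positions are those of the array design. In present RefSeq naming FAM213A is PRXL2A, LINC01468 is LNCAROD and PPAP2C is PLPP2. Alternatives changed the background correction, the scaling, the filter, the choice of probe, the unit of replication and the lines or arrays used. Figures were drawn with matplotlib 3.10.9 (Python 3.11.15).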

Additional observations from a re-analysis of the deposited data

How the results depend on the processing

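The counts of 30 genes called higher and 25 lower by limma depended on the settings. The 55 called genes were picked for large differences on these same arrays, so agreement in sign is no separate support. Of these 55, 54 had the same sign in every setting that kept them. The exception was CIC, whose other probe was used, as the brightest kept one, with detection required on all 8 arrays (0.25) or without SW1990 (0.31), MDA-MB-231 (0.17) or PANC1 (0.15). Among genes not called, APOBEC3F turned to -1.20 with its probes averaged, and PIR to -0.37 without MDA-MB-231 and -0.40 with the slide row as a block.

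Higher calls numbered 226 with normexp, 79 with the processed signal, 424 without a filter and 47 with every probe tested by itself. Lower calls numbered 9 with normexp. With arrays as samples and the line as a random block 23 genes were called higher and 49 lower, which held 8 of the 30 and 20 of the 25, so 22 higher calls were not made there. Leaving out 1 array of a line gave 29 to 187 higher and 25 to 45 lower calls, with the highest counts from leaving out a PC3 array. Calls fell to 0 higher and 0 lower with detection required on all 8 arrays (341 and 273 at an unadjusted p under 0.05), without any 1 line (716 to 793 and 401 to 570), and with the row of the slide as a block, chosen after seeing the data (934 and 489). The transfected channel had 232 higher and 12 lower calls with normexp, 725 higher without a filter, and 0 of either with detection required on all 8 arrays. Genes seen everywhere but in PC3 numbered 83 in place of 162 when a margin of 2 on the log2 scale was required. The cause of these shifts was not tested, apart from the fewer lines or genes that some settings leave.

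No paired analysis was possible because the labels give the lines no shared replicate numbers. There was 1 slide and 1 scan, so neither was a block. Genes near background carry only nominal bounds, and signal over background limits what can be said of low genes such as KLK3.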
